A study of Mus musculus with 18 samples.

Results

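The erbB2-positive cells recovered from an equal-parts co-culture of normal-type and tumour mammary cells were compared with the same tumour cells grown alone. The comparison used 6 of the 18 arrays of the series, chosen by sample title: 3 of the 1:1 erbB2-positive fraction and 3 of unmixed MMTV-neu. MMTV-neu is a line from mammary tumours of mice in which the mouse mammary tumour virus promoter drives the neu (erbB2) oncogene, and the labels call it cancer, erbB2-positive and positive for phosphorylated erbB2. The fraction carries the same 3 labels. It came from mixtures of 1 part of Comma-D, a line from normal mouse mammary tissue, to 1 part of erbB2-positive cells. The mixtures were trypsinised, bound with an anti-erbB2 antibody and retained on a magnetic column, and total RNA was extracted. MMTV-neu grew in DMEM with 10% serum. The co-cultures, like unmixed Comma-D, grew in DMEM/F12 with 2% serum, 10 ug/ml insulin and 5 ng/ml EGF. Growth in a mixture, this medium and the presence of Comma-D cells or their RNA in the fraction therefore cannot be told apart in this comparison. The labels do not say whether the 3 arrays of a group came from separate cultures, so the spread between arrays may be technical. The p-values rest on that spread pooled within the groups of all 18 arrays, not of the 6 compared arrays alone.

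Receptor tyrosine kinases of the ERBB family sit at the surface of epithelial cells and signal in pairs. ERBB2 has no known soluble ligand of its own and drives proliferation when it is amplified or over-expressed, as in a subset of breast cancers. The normal mammary duct has an inner luminal layer, marked by the simple keratins Krt8 and Krt18, and an outer basal or myoepithelial layer, marked by Krt5, Krt14 and smooth muscle actin. Tumours of MMTV-neu mice are known for a luminal character, whereas Comma-D cultures hold cells with basal features.

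All values are deposited log2 expression values, so a difference of 1 is a 2-fold change. Over all 35556 deposited probe sets of a pair of arrays, Pearson's r was 0.9188 to 0.9579 between arrays of the fraction and of MMTV-neu. It was 0.9757 to 0.9896 within the fraction and 0.9557 to 0.9753 within MMTV-neu, with probe sets no replicates of each other. The spread of probe set values over an array was wider in the fraction (SD 1.61 to 1.71) than in MMTV-neu (SD 1.51 to 1.55). It was narrower than in Comma-D (SD 1.97 to 1.99). Array 1 of the fraction had the narrowest spread of its group. Quantile normalization over genes, which gives all arrays the same spread, changed the number and split of calls, as given below. Beyond that alternative, whether this difference in spread contributes to the calls was not tested.

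Against MMTV-neu, 840 genes were higher and 2818 lower in the fraction, together 3658 of 19938 genes or 18.3% (limma, Benjamini-Hochberg adjusted p under 0.05). As shares of all genes, 4.21% were higher and 14.1% lower, the background for the list counts below. The calls were lopsided in size. Of the genes called higher, 389 (1.95% of all genes) differed at least 2-fold, but only 2 of those called lower did (0.01%), the microRNA gene Mir196a-2 and the nuclear receptor gene Nr2f1. Genes were ranked by their mean over all arrays and divided into 4 equal bins. The top bin held 804 of the higher calls and 187 of the lower ones, and the bottom bin held 2 and 1467. That ranking draws on Comma-D and co-culture arrays in which the raised genes are high, so the higher calls partly set their own bin. In 4 bins by the MMTV-neu mean alone, from bottom to top, higher calls numbered 45, 202, 287 and 306 and lower calls 1220, 771, 458 and 369. By the mean over all arrays, the median difference was -0.25 in the bottom bin and 0.09 in the top bin, against -0.15 over all genes. By the MMTV-neu mean it was -0.22 and -0.09. The 3 and 3 arrays did not overlap for 6418 genes (32.2%), of which 1322 were higher (6.63%) and 5096 lower (25.6%) in the fraction. The split of calls depended on the scaling. It was 1383 higher and 1867 lower after quantile normalization, with an all-gene median of -0.05. Of these 1867, 1177 were among the 2818. After centring on reference genes the split was 551 and 8659, with a median of -0.49. Centring lowers the difference of every gene by the same amount. The mean level of the 9 reference genes was 9.01 to 9.55 per array in the fraction and 8.83 to 9.04 in MMTV-neu, and 3 were themselves called higher. With the compared groups alone in the fit, 563 were higher and 230 lower, so most lower calls were lost in that fit. It takes the spread from these groups only, whereas the main fit pools it over all groups. The total fell to 1814 without array 2 of the fraction and to 1362 without array 3. Of the 389 genes, 287 to 387 were called at 2-fold or more again when single arrays of either group were left out.

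**Figure D1:**
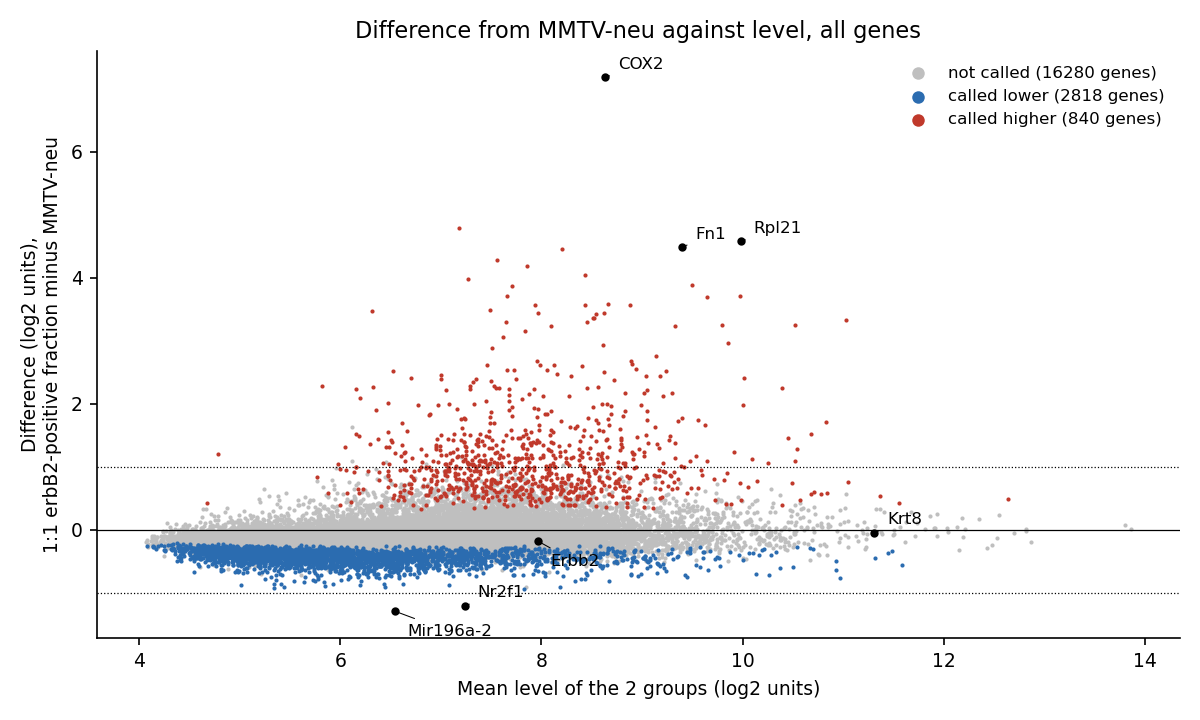
Difference between the 1:1 erbB2-positive fraction and MMTV-neu (vertical axis, log2 units) against the mean level of both groups (horizontal axis, log2 units), 1 point per gene, with dotted lines at 2-fold. The 840 genes called higher reach 7.18 log2 units at COX2, whereas the 2818 called lower form a shallow band that passes 2-fold at Mir196a-2 and Nr2f1 alone.

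The gene farthest from MMTV-neu was COX2, which here is the mitochondrial gene for cytochrome c oxidase subunit II and not the prostaglandin synthase of that nickname. Its level on the 3 arrays of the fraction was 11.87, 12.23 and 12.57, against 5.46, 4.71 and 4.97 in MMTV-neu. The groups were far apart, with a difference of 7.18 (SE 0.17, adjusted p = 3.62e-14). ND3, a mitochondrial gene for a complex I subunit, read 9.19, 9.69 and 9.82 against 5.09, 4.53 and 4.72, a difference of 4.79 (SE 0.17, adjusted p = 4.73e-12). In MMTV-neu both mitochondrial genes therefore lay below the arrays' medians over all probe sets, 6.45 to 6.48, although such transcripts are abundant in most cells. Whether RNA quality or probe behaviour in MMTV-neu moves with this reading was not tested. Among the 80 measured nuclear-encoded genes of the respiratory chain, 20 were higher and 4 lower, with a median difference of 0.11 against -0.15 over all genes. That median was -0.23 after centring on reference genes, when the all-gene median was -0.49.

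Ribosomal protein genes divided. Rpl21, for a protein of the large subunit, read 12.02, 12.31 and 12.48 in the fraction and 7.77, 7.80 and 7.52 in MMTV-neu, a difference of 4.57 (SE 0.12, adjusted p = 7.11e-14). Rps6, a small-subunit protein phosphorylated downstream of growth signals, read 11.75, 12.25 and 12.43 against 9.01, 8.87 and 8.81. Rpl12 went the other way, at 5.75, 5.80 and 5.51 against 6.43, 6.07 and 6.45. It was lower by 0.63 (SE 0.18, adjusted p = 0.0258), a call lost under quantile normalization (adjusted p = 0.077) and without any of 4 single arrays. Of 60 measured cytosolic ribosomal protein genes, 20 were higher (4.21% of all genes were) and 3 were lower (14.1% of all genes). The median was 0.25, or -0.08 after centring on reference genes. These shares of all genes are not matched for level. By the mean over all arrays, only 2 of the 60 lay in the lower 2 level bins. The top bin of 4985 genes held 804 higher and 187 lower calls. Many genes of this family have processed copies elsewhere in the genome, so their probe sets may read more than 1 locus.

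Genes of the extracellular matrix and of a mesenchymal programme were among the strongest rises. Fn1, which encodes fibronectin, read 11.23, 11.89 and 11.82 in the fraction and 6.98, 7.39 and 7.11 in MMTV-neu, a difference of 4.48 (SE 0.17, adjusted p = 1.02e-11). Postn, for the matrix protein periostin, read 9.66, 10.91 and 10.78 against 6.91, 6.04 and 6.29. Both genes were lowest in array 1 of the fraction, which still lay above every MMTV-neu array. Sparc, for a collagen-binding matricellular protein, differed by 3.89 (SE 0.14, adjusted p = 1.02e-11), and Thbs1, for thrombospondin 1, by 3.70 (SE 0.16, adjusted p = 5.83e-11). Timp3, an inhibitor of matrix metalloproteases, read 9.40, 10.77 and 11.18 against 7.25, 7.06 and 6.29. Vim, for the intermediate filament of mesenchymal cells, read 11.16, 12.05 and 12.27 against 7.83, 8.29 and 8.26, a difference of 3.70 (SE 0.21, adjusted p = 3.44e-09). In unmixed Comma-D the means of Fn1, Postn, Sparc, Thbs1, Timp3 and Vim were 13.22, 12.24, 12.66, 12.50, 12.34 and 12.93, above the fraction in each case. Of 26 measured genes on the mesenchymal list, 14 were higher (53.8%, against 4.21% of all genes) and 0 lower (14.1% of all genes were). The list median was 0.75 against -0.15 over all genes, and 10 genes were higher at least 2-fold. These shares are not matched for level, and only 1 of the 26 lay in the lower 2 level bins.

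Genes of stromal character divided. Fbln2, for the matrix protein fibulin 2, read 8.60, 9.27 and 8.97 in the fraction and 7.42, 7.83 and 7.56 in MMTV-neu, a difference of 1.34 (SE 0.21, adjusted p = 0.000598). Pdgfrb, a platelet-derived growth factor receptor of mesenchymal cells, was higher by 1.08 (SE 0.31, adjusted p = 0.0262). The call of Pdgfrb was lost without array 2 (adjusted p = 0.125) or 3 (0.114) of the fraction, without MMTV-neu array 3 (0.0802) and in the fit of the compared groups alone (0.0536). The collagen genes Col12a1 and Col8a1 were higher by 2.39 (SE 0.29) and 1.47 (SE 0.25). Other genes of this kind were not called. Pdgfra, the platelet-derived growth factor receptor of fibroblasts, read 7.49, 7.28 and 6.63 in the fraction and 7.14, 7.00 and 7.00 in MMTV-neu, although its Comma-D mean was 10.65. The difference was 0.08 with a 95% interval of -0.66 to 0.83. Mmp2, a gelatinase, read 7.54, 7.59 and 7.63 against 7.53, 7.63 and 7.57, with a Comma-D mean of 10.07 and an interval for the difference of -0.26 to 0.28. Decorin (Dcn) averaged 8.48 in Comma-D, and its difference from MMTV-neu was -0.32 (interval -0.66 to 0.02). The growth factor gene Igf2 averaged 9.97 in Comma-D, and its difference was -0.20 (interval -0.49 to 0.09). For these 4 genes, picked after their values were seen, a level well above MMTV-neu in Comma-D did not go with a call in the fraction. Dcn and Igf2 were called lower after centring on reference genes (adjusted p = 0.0446 and 0.0429), a shift common to all genes. Dcn was also called lower with a replicate block (adjusted p = 0.0351). Over the 16 measured fibroblast markers, 3 were higher and 1 was lower, and of 44 collagen genes, 4 were higher and 1 was lower. The mean level of the fibroblast list was 6.80 to 6.96 per array in the fraction, 6.78 to 6.82 in MMTV-neu and 7.49 to 7.53 in Comma-D.

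The actin and contractile list had the largest share of rises among the lists with more than 2 measured genes. Of its 29 measured genes, 17 were higher (58.6%, against 4.21% of all genes) and 0 lower (14.1% of all genes were). The list median was 0.81 and stayed positive at 0.48 after centring on reference genes. Only 1 of the 29 lay in the lower 2 level bins, so these shares are not matched for level. Actb, for cytoplasmic beta-actin, read 12.32, 12.80 and 12.95 in the fraction and 9.56, 9.44 and 9.09 in MMTV-neu, a difference of 3.33 (SE 0.15, adjusted p = 1.18e-10). Actb is widely used as a control gene, and its Comma-D mean was 13.30. Cnn2, an actin-binding calponin, differed by 3.24 (SE 0.27, adjusted p = 4.52e-07). Acta2, the smooth muscle actin of myoepithelial cells, read 10.62, 11.59 and 11.79 against 8.34, 8.24 and 8.54. Moesin (Msn), which ties actin to the membrane, read 8.61, 9.70 and 9.88 against 7.02, 6.79 and 6.96. No array of the fraction overlapped MMTV-neu in these 4 genes.

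Basal keratins were higher, whereas the simple keratins Krt8 and Krt18 were not called. Krt14, the main acidic keratin of basal cells, read 9.42, 9.93 and 9.74 in the fraction and 7.49, 7.29 and 7.52 in MMTV-neu, a difference of 2.26 (SE 0.15, adjusted p = 1.8e-08). Its partner Krt5 read 9.55, 10.28 and 9.17 against 7.42, 7.80 and 7.92, a difference of 1.96 (SE 0.26, adjusted p = 0.000119). Krt17, a keratin of basal and stressed epithelia, differed by 1.41 (SE 0.26, adjusted p = 0.00208). The integrin genes Itgb1 and Itga6, whose products anchor basal cells to laminin, differed by 2.23 (SE 0.23) and 1.39 (SE 0.25). Trp63, the p63 regulator that defines basal cells, read 8.42, 8.16 and 7.96 against 7.52, 8.24 and 8.15 and was not called (difference 0.21, interval -0.58 to 1.00). Over the 29 basal and myoepithelial markers, 9 were higher and 1 lower, and the median of 0.24 became -0.09 after centring on reference genes. The mean level of this list was 7.89 to 8.19 per array in the fraction, 7.28 to 7.42 in MMTV-neu and 8.72 to 8.75 in Comma-D.

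Krt8 read 11.28, 11.35 and 11.22 in the fraction and 11.22, 11.33 and 11.46 in MMTV-neu, so the groups overlapped. The difference of -0.05 had an interval of -0.45 to 0.35, and Comma-D lay far below at a mean of 7.41. Its partner Krt18 did not separate the groups either, at a difference of -0.08 (interval -0.29 to 0.13). Foxa1, a transcription factor of luminal cells, read 9.58, 9.64 and 9.60 against 9.82, 10.18 and 10.31, without overlap but not called (difference -0.50, interval -0.95 to -0.04, adjusted p = 0.111). Foxa1 was called lower after centring on reference genes (adjusted p = 0.0302), which lowers all genes alike, and with array weights (adjusted p = 0.0434). E-cadherin (Cdh1), the adhesion protein of epithelia, read 7.18, 7.72 and 7.81 against 7.15, 7.04 and 7.16 and was not called (difference 0.45, interval -0.09 to 1.00), except with array weights (adjusted p = 0.0198). Epcam, another epithelial adhesion gene, read 5.97, 6.93 and 7.61 against 6.01, 5.93 and 5.70. It was not called (adjusted p = 0.0951) unless array 1 of the fraction was left out (adjusted p = 0.0193), a replicate block was added (adjusted p = 0.0404) or arrays were weighted (adjusted p = 0.00656). Of 28 luminal markers, Cd24a alone was higher and Krt20 alone lower. Cd24a, a surface glycoprotein used to sort mammary epithelium, read 9.41, 10.47 and 10.75 against 6.71, 6.69 and 6.55 (difference 3.56, SE 0.29, adjusted p = 2.76e-07), and its Comma-D mean was 11.83. Krt20 was lower by 0.53, a call lost under quantile normalization (adjusted p = 0.124) and without array 1 (0.0519) or 3 (0.0559) of the fraction.

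**Figure D2:**
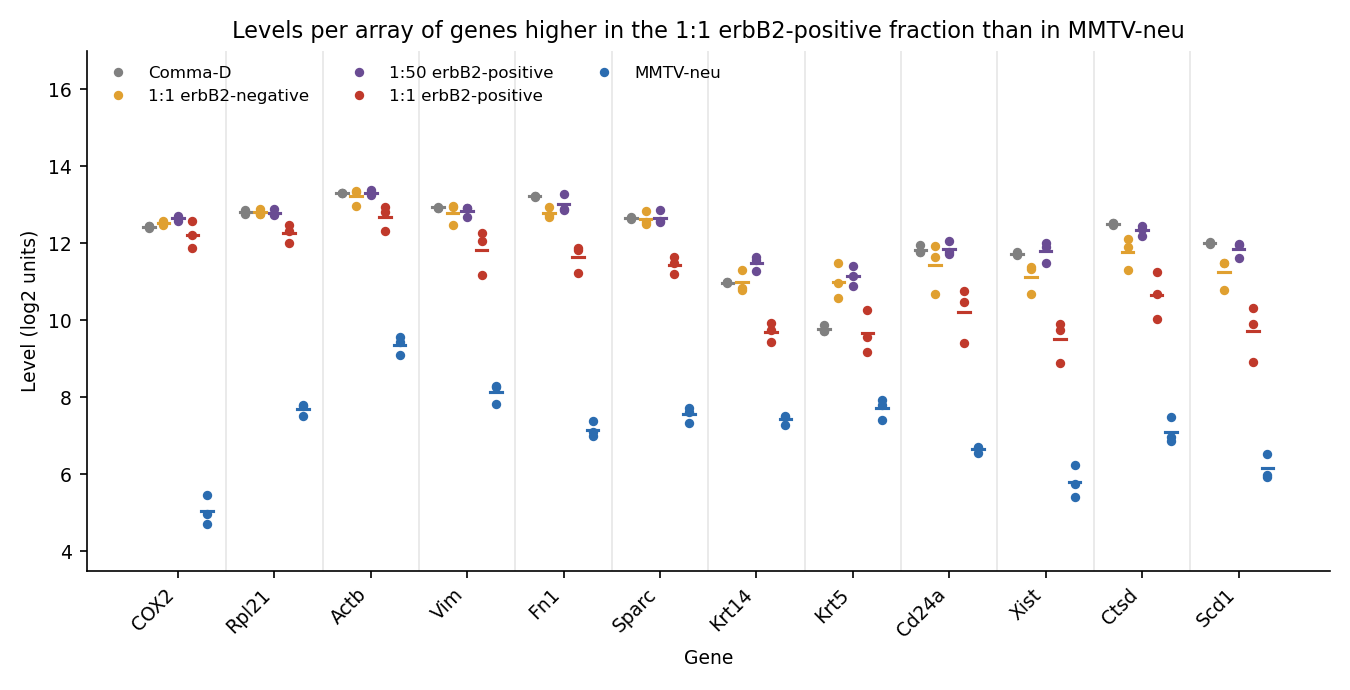
Level per array (log2 units) of 12 genes called higher in the 1:1 erbB2-positive fraction, with short bars at the means of 3 arrays. For each gene the fraction lies above all MMTV-neu arrays, and its mean lies below the Comma-D mean, by the smallest margin for Krt5 and COX2.

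The gene for the protein used to sort the cells was not called. Erbb2 read 7.87, 7.83 and 7.92 in the fraction and 8.14, 7.89 and 8.14 in MMTV-neu, a difference of -0.18 (SE 0.10, interval -0.39 to 0.02, adjusted p = 0.195). Erbb2 was lower by 0.52 after centring on reference genes (adjusted p = 0.0348), a step that lowers every gene by the same amount. The neu transgene of this mouse model is known as a rat gene, and how far this probe set reads it was not tested. Erbb3, the kinase-poor partner of ERBB2, differed by -0.04 (interval -0.41 to 0.32), and Egfr, the receptor for the EGF in the co-culture medium, by 0.08 (interval -0.38 to 0.54). Of 33 measured ERBB receptors, ligands and feedback genes, 2 were higher (6.06%, against 4.21% of all genes). Only 1 was lower (3.03%, against 14.1%), and the list median was -0.16, against -0.15 over all genes. The share of higher calls is near that of all genes, so it does not set the list apart. Both higher genes are known to be induced by ERK signalling and to restrain it. Dusp6, an ERK phosphatase, read 7.62, 7.81 and 7.78 against 5.94, 6.66 and 6.91 (difference 1.24, SE 0.19, adjusted p = 0.000621), and Errfi1, which inhibits ERBB kinases, read 8.75, 8.93 and 8.99 against 7.76, 7.84 and 8.21 (difference 0.96, SE 0.13, adjusted p = 0.000125). Their Comma-D means were 10.59 and 11.40. Etv4, an ERK-induced transcription factor, was lower at 7.03, 6.98 and 6.98 against 7.38, 7.50 and 7.53, by 0.47 (SE 0.11, adjusted p = 0.00748). That call was lost when the compared groups alone were fitted (adjusted p = 0.0567).

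Surface and endosomal genes included some of the widest gaps. Cd63, a tetraspanin of late endosomes and exosomes, read 8.44, 9.46 and 9.89 in the fraction and 5.60, 4.86 and 5.39 in MMTV-neu, a difference of 3.98 (SE 0.27, adjusted p = 2.61e-08). The lysosomal protease gene Ctsd read 10.04, 10.68 and 11.25 against 6.85, 6.96 and 7.48. Lamp2, for a protein of the lysosomal membrane, differed by 3.48 (SE 0.23), Psap, for the precursor of the saposins, by 3.42 (SE 0.16) and Ctsb, for cathepsin B, by 2.61 (SE 0.19). Of 29 measured lysosome genes, 12 were higher (41.4%, against 4.21% of all genes) and 0 lower (14.1% of all genes were), with a median of 0.37. Only 1 of the 29 lay in the lower 2 level bins, so these shares are not matched for level. B2m, the light chain of class I molecules, read 9.55, 9.89 and 10.40 against 6.09, 5.26 and 5.93, a difference of 4.18 (SE 0.20, adjusted p = 3.42e-10). Of the 15 class I antigen presentation genes, 4 were higher, B2m among them, and 1 was lower. Ifitm3, an interferon-induced membrane protein that blocks virus entry, read 10.37, 10.30 and 10.60 against 5.86, 5.87 and 6.20, a difference of 4.45 (SE 0.12, adjusted p = 7.11e-14). In MMTV-neu, Cd63, B2m and Ifitm3 lay below the arrays' medians of 6.45 to 6.48, as the mitochondrial genes did. Whether RNA quality or probe behaviour moves with these readings was not tested. Over the 28 interferon-stimulated genes, 3 were higher, 2 were lower and the median was 0.01, so the rise of Ifitm3 was not shared by most of its list.

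Lipid, redox and chaperone genes were higher in part. The stearoyl-CoA desaturase genes Scd1 and Scd2, which make monounsaturated fatty acids, differed by 3.56 (SE 0.27) and 3.43 (SE 0.34). Scd1 read 8.91, 9.92 and 10.31 in the fraction and 5.93, 5.98 and 6.54 in MMTV-neu. Fads1, a desaturase of polyunsaturated fatty acids, differed by 1.63 (SE 0.25), fatty acid synthase (Fasn) by 1.01 (SE 0.27) and squalene synthase (Fdft1) by 1.08 (SE 0.30). The calls of Fasn and Fdft1 were lost without array 2 of the fraction (adjusted p = 0.0817 and 0.0819) or array 3 (0.0793 and 0.0887). Fasn was also lost without MMTV-neu array 1 (0.0589), and Fdft1 without MMTV-neu array 2 (0.0571) or 3 (0.0534). Of 30 cholesterol and fatty acid synthesis genes, 8 were higher (26.7%, against 4.21% of all genes) and 1 lower (3.33%, against 14.1%). On the glutathione and NRF2 list, 14 of 30 genes were higher (46.7%, against 4.21% of all genes). Among them were the metallothionein Mt2 (difference 2.52, SE 0.27), the ferritin light chain Ftl1 (2.22, SE 0.34), the glutathione peroxidase Gpx1 (2.21, SE 0.19) and thioredoxin Txn1 (1.71, SE 0.25). The 2 lower genes were Keap1, which restrains NRF2, and the cystine transporter Slc7a11, by 0.32 and 0.52. Both lower calls were fragile and were lost in the fit of the compared groups alone (adjusted p = 0.163 and 0.0852) and without array 1, 2 or 3 of the fraction. Among 20 heat shock chaperones, 8 were higher and 0 lower, with a median of 0.61. Hspa4 differed by 1.21 (SE 0.21, adjusted p = 0.00171). The constitutive chaperone Hspa8 read 10.90, 11.50 and 11.88 against 10.73, 10.56 and 10.72, a difference of 0.76 (SE 0.18, adjusted p = 0.0104). Hsp90aa1 differed by 0.92 (SE 0.25, adjusted p = 0.0194). Without array 3 of the fraction Hspa8 and Hsp90aa1 were no longer called (adjusted p = 0.0645 and 0.102), nor in the fit of the compared groups alone (0.0692 and 0.0786), and Hsp90aa1 was also lost without MMTV-neu array 3 (0.0558).

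The mitosis and DNA replication lists showed almost no calls. The cyclin, CDK inhibitor and p53 list had 5 of 25 genes higher (20.0%, against 4.21% of all genes) and 0 lower, among them Ccng1 at 1.37 and Ccnd2 at 1.06. Of 34 mitosis genes, 0 were higher and 0 lower by limma (4.21% and 14.1% of all genes were). Their median was 0.04, or -0.30 after centring on reference genes. Mki67, the proliferation marker, read 6.93, 7.76 and 8.04 in the fraction and 7.46, 6.86 and 7.25 in MMTV-neu, and its difference of 0.39 had an interval of -0.63 to 1.40. Mad2l1, a spindle checkpoint gene, had the largest difference on the list at 1.63 (interval 0.41 to 2.86, adjusted p = 0.0591). Mad2l1 was called higher under 6 alternatives, among them quantile normalization (adjusted p = 0.034). Of 38 DNA replication genes, the polymerase clamp gene Pcna alone was called, at 7.66, 8.14 and 8.78 against 7.10, 6.75 and 7.27 (difference 1.15, SE 0.33, adjusted p = 0.024). That call was lost without array 2 (adjusted p = 0.0611) or 3 (0.134) of the fraction or MMTV-neu array 2 (0.0753). The wide intervals of Mki67 and Mad2l1 do not show that these levels were alike.

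Milk protein genes gave 3 higher and 2 lower calls among 22. Lcn2, for a secreted iron-siderophore carrier of stressed and involuting epithelium, read 9.62, 8.56 and 9.27 against 6.21, 5.89 and 6.15 (difference 3.06, SE 0.34, adjusted p = 1.64e-05). Mfge8, a milk fat globule protein, differed by 1.59 (SE 0.22). The casein gene Csn2 stayed near the bottom of the scale in both groups, at 5.15, 4.99 and 5.00 against 5.74, 5.16 and 5.20 (adjusted p = 0.072). Csn2 was called lower under 6 alternatives, a replicate block among them (adjusted p = 0.0435). Outside the lists, Brinp3 read 9.01, 10.06 and 10.03 against 5.41, 5.61 and 5.23 (difference 4.28, SE 0.24, adjusted p = 2.53e-09). Plp2, a membrane proteolipid of the endoplasmic reticulum, differed by 3.87 (SE 0.29). Xist, the RNA that coats the inactive X chromosome in female cells, read 8.89, 9.75 and 9.91 against 5.41, 5.75 and 6.25 (difference 3.71, SE 0.25, adjusted p = 2.25e-08). Comma-D averaged 11.73 for Xist, 12.01 for Brinp3 and 11.60 for Plp2, again above the fraction.

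**Figure D3:**
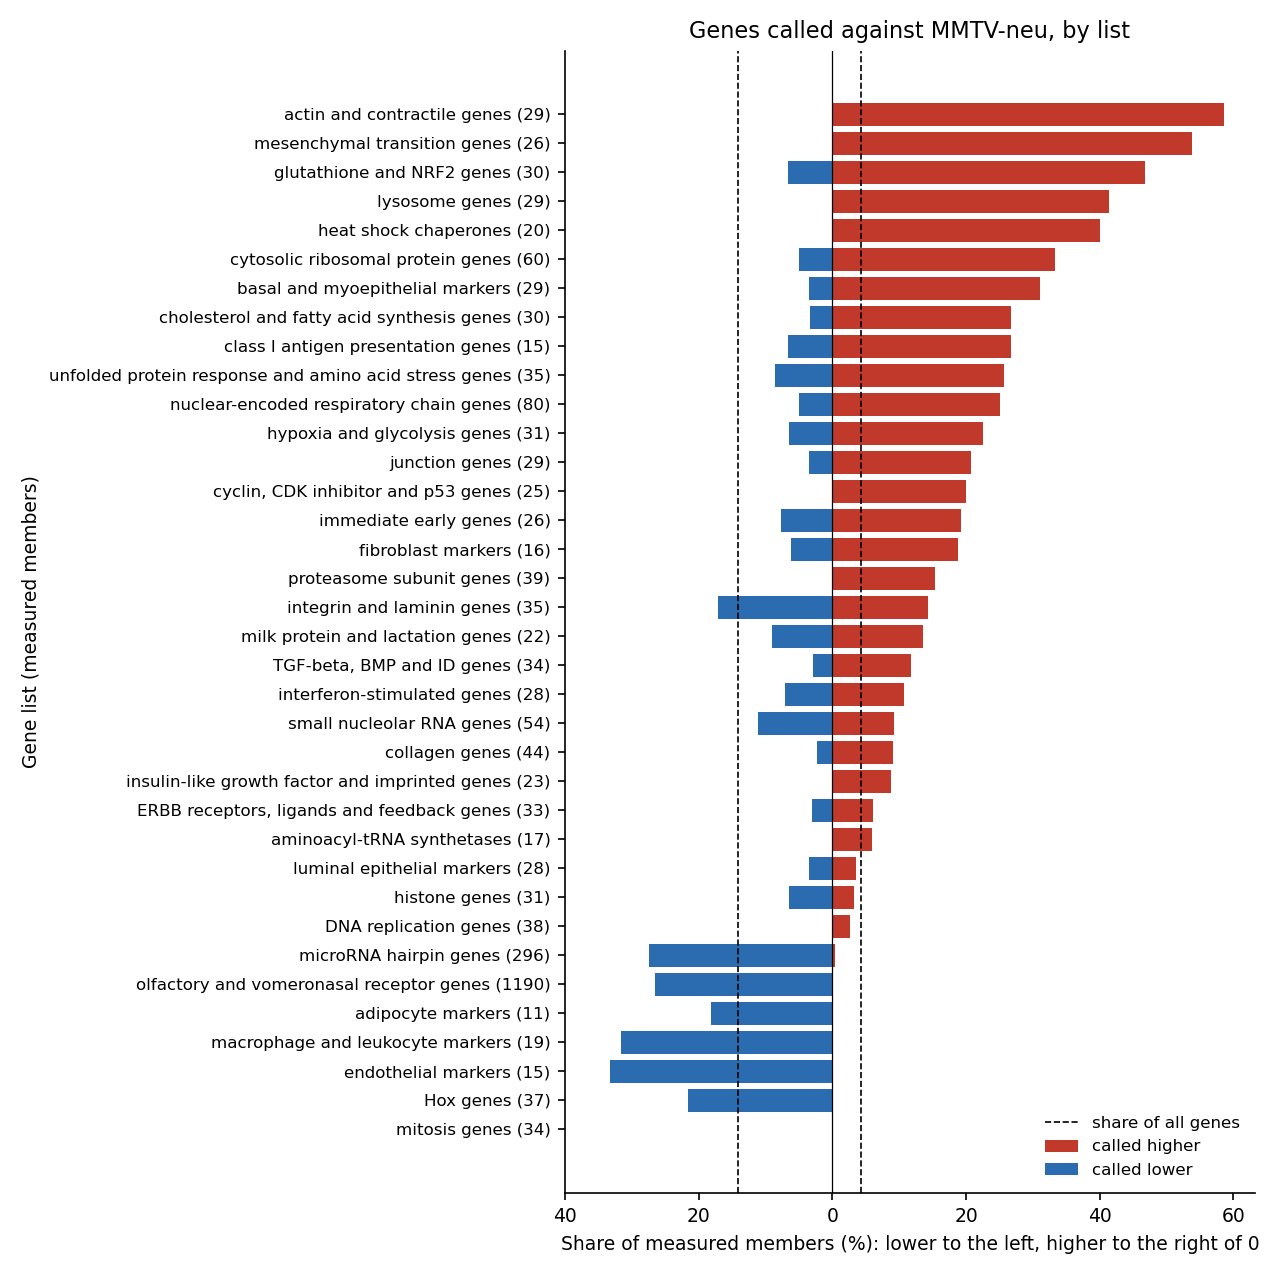
Share of the measured members of each gene list called higher (right) or lower (left) in the 1:1 erbB2-positive fraction against MMTV-neu, in percent, with dashed lines at the shares of all genes (4.21% and 14.1%). Actin and contractile genes reach 58.6% higher. The largest lower shares are those of endothelial markers (33.3%) and of macrophage and leukocyte markers (31.6%). Then come microRNA hairpin genes (27.4%), olfactory and vomeronasal receptor genes (26.6%) and Hox genes (21.6%). The shares of all genes are not matched for level.

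The plot of shares by list also holds the remaining lists, to be read beside 4.21% of all genes higher and 14.1% lower. Those shares are not matched for level. In the top level bin of 4985 genes, 804 were higher and 187 lower, so these counts alone do not set a list apart. For proteasome subunits 15.4% were higher. For histones 6.45% were lower and for small nucleolar RNAs 11.1%. Calls higher and lower were 9 and 3 of 35 for the unfolded protein and amino acid stress genes, 7 and 2 of 31 for hypoxia and glycolysis, 6 and 1 of 29 for junctions, and 6 and 0 of 39 for proteasome subunits. They were 5 and 6 of 35 for integrins and laminins, 5 and 2 of 26 for immediate early genes, 5 and 0 of 25 for cyclin, CDK inhibitor and p53 genes, and 4 and 1 of 34 for TGF-beta, BMP and ID genes. They were 5 and 6 of 54 for small nucleolar RNAs, 2 and 0 of 23 for insulin-like growth factor and imprinted genes, 1 and 2 of 31 for histones, and 1 and 0 of 17 for aminoacyl-tRNA synthetases. Of 9 measured reference genes, 3 were higher and 0 lower, with a median of 0.28, or -0.06 after centring on them.

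The 389 genes at least 2-fold higher than in MMTV-neu were chosen by this contrast, and their levels in all groups are given as a description. Their median level was 8.69 in the fraction (8.22 to 9.02 by array), 7.04 in MMTV-neu, 10.21 in the 1:1 erbB2-negative fraction, 10.51 in the 1:50 erbB2-positive fraction and 10.81 in Comma-D. For all 389, the Comma-D mean was above the mean of the fraction. On a linear scale the fraction stood at a median of 24.3% of the Comma-D level, with quartiles of 19.6% and 29.6% and a range of 5.33% to 92.9%. The share was above 60% for 7 genes, Krt5 (92.9%), COX2 (86.6%), Rpl21 (68.8%), Rps6 (66.5%), Actb (65.5%), Actg2 (62.0%) and Col17a1 (61.0%), singled out after their values were seen. Against Comma-D, Krt5 and COX2 were not called in the fraction, at -0.11 (SE 0.26) and -0.21 (SE 0.17). The lowest share belonged to Zfp971, at 4.72, 5.51 and 5.91 in the fraction, 4.32, 4.14 and 4.11 in MMTV-neu and a mean of 9.61 in Comma-D. The calls of Zfp971, Actg2 and Col17a1 against MMTV-neu were each lost without array 2 of the fraction (adjusted p = 0.0985, 0.0885 and 0.0765), and those of Zfp971 and Actg2 also without array 3 (0.163 and 0.175). Zfp971 was also lost without MMTV-neu array 1 (0.0549), 2 (0.0722) or 3 (0.0774), Actg2 without array 1 (0.0689) or 3 (0.0901) and Col17a1 without array 3 (0.0579). Whether Comma-D cells, or RNA from them, lie behind any of these levels was not tested, and array signals at the top of the scale are known to be compressed.

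**Figure D4:**
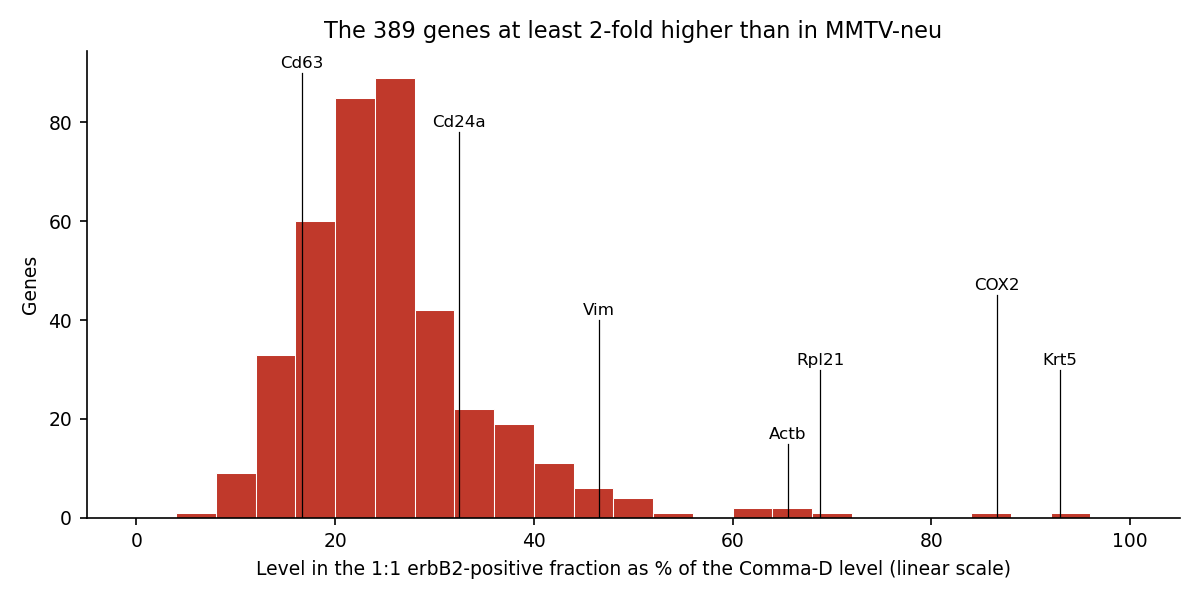
Histogram of the 389 genes at least 2-fold higher than in MMTV-neu by their level in the 1:1 erbB2-positive fraction as a percentage of the Comma-D level (horizontal axis, linear scale, ratio of 2 to the power of the log2 means). The median is 24.3%, with Cd63 below it, Cd24a and Vim above it, and Actb, Rpl21, COX2 and Krt5 in the tail.

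Lower calls were small and came mostly from genes near the bottom of the scale. Of the 2818, 2277 (80.8%) lay in the lower 2 of the 4 level bins. Olfactory and vomeronasal receptor genes, which serve smell and are not known in mammary epithelium, were added as a list after the data were seen. Of 1190 measured, 316 were lower (26.6%) and 1 was higher, with a median of -0.23. After quantile normalization the same list had 35 lower and 13 higher and a median of -0.03. The mean level of these receptors was 4.89 to 5.06 per array in the fraction, 5.16 to 5.27 in MMTV-neu and 4.66 in Comma-D. A low-level gene called lower in the fraction is therefore to be read beside these receptors.

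Nr2f1, an orphan nuclear receptor of development, was a larger case, at 7.11, 6.41 and 6.38 in the fraction and 7.84, 7.88 and 7.81 in MMTV-neu, lower by 1.21 (SE 0.18, adjusted p = 0.000419). Stc1, for the secreted hormone stanniocalcin, read 6.82, 6.65 and 6.46 against 7.51, 7.37 and 7.69 and was lower by 0.88 (SE 0.15, adjusted p = 0.00152). Zc3h6, a zinc finger gene, was lower by 0.94 (SE 0.19) and Gpbp1, a promoter-binding factor gene, by 0.91 (SE 0.22). Gpbp1 read 7.60, 7.79 and 7.80 against 8.92, 8.20 and 8.80. The other genes among the 15 widest falls were Lgi1, Lyzl1, Gphb5, Ubqln5, Asb12, Defb8, Necab1 and 4 microRNA genes, with differences from -0.93 to -0.86 in the named protein-coding genes. Of these, Lgi1, Lyzl1, Gphb5, Asb12 and Defb8 averaged 4.88 to 5.49 in the fraction, near the bottom of the scale. The call of Defb8 was lost in the fit of the compared groups alone (adjusted p = 0.0601).

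MicroRNA genes were read on this array at their hairpin loci, not as mature forms. Of 296 measured hairpin genes, 81 were lower and 1 was higher, with a median of -0.24 that resembled that of the smell receptors (-0.23). After quantile normalization 28 were lower, 4 were higher and the median was -0.09. In MMTV-neu, 196 of the 296, and 64 of the 81, averaged below the array medians over all probe sets. RefSeq sequences (GRCm38.p6) were matched by symbol for 271 of the hairpin genes. A mature microRNA pairs with its targets through the seed, bases 2 to 8 from the 5′ end, shown in capitals below for the hairpins with the widest falls and for relatives that share a seed.
mmu-miR-196a-5p: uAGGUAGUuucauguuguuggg
mmu-let-7g-5p: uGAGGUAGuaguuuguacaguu
mmu-let-7f-5p: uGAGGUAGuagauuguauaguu
mmu-miR-340-5p: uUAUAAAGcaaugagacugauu
mmu-miR-181b-5p: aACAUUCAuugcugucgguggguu

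Mir196a-2 (mature form at chr15:102973365-102973386, plus strand) read 5.82, 6.09 and 5.77 in the fraction and 6.85, 7.41 and 7.30 in MMTV-neu, the widest fall of any called gene at -1.29 (SE 0.15, adjusted p = 2.86e-05). All arrays of the fraction lay below all arrays of MMTV-neu, and the Comma-D mean was 5.36. The 3 hairpins with its seed, AGGUAGU, were Mir196a-1, Mir196a-2 and Mir196b, of which 2 were lower. Mirlet7g (chr9:106178846-106178867, plus strand) read 6.11, 6.06 and 5.78 against 6.70, 7.04 and 6.95, a difference of -0.92 (SE 0.13, adjusted p = 0.000315). Let-7 microRNAs restrain growth genes and accumulate in differentiated cells. Of 9 measured hairpins with a matched mature form holding the let-7 seed GAGGUAG, 6 were lower, against 27.4% of all hairpin genes. Mirlet7d, Mirlet7f-1 and Mirlet7a-1, all among the 6, have mature forms between 48536024 and 48538260 on chr13, so they may not vary separately. Mirlet7f-1 was among the 6, at -0.78 (SE 0.14), and the median of the 9 was -0.40. Mirlet7a-2, a let-7 hairpin whose seed-bearing mature form was not matched, is not among the 9 and was not called (difference -0.21). Mir340 read 4.87, 4.59 and 4.27 against 5.49, 5.61 and 5.26. Mir181b-2 read 6.40, 5.90 and 5.70 against 6.69, 6.54 and 7.37, with a call lost without array 3 of the fraction (adjusted p = 0.0742), without MMTV-neu array 3 (0.0519) and in the fit of the compared groups alone (0.0592). Only 1 of the 6 hairpins with its seed ACAUUCA was lower.

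Hox genes, which record position along the body axis, were called lower only, except for 1 higher after quantile normalization. Of 37 measured, 8 were lower (21.6%, against 14.1% of all genes) and 0 higher, with a median of -0.24. Of the 37, 26 lay in the lower 2 level bins, where lower calls were more frequent than over all genes. Hoxc10 read 8.25, 7.71 and 7.80 in the fraction and 8.58, 8.75 and 8.91 in MMTV-neu, lower by 0.82 (SE 0.23, adjusted p = 0.0227), and its Comma-D mean was 5.04. Hoxc9 read 7.34, 7.29 and 6.94 against 7.69, 7.53 and 8.10, lower by 0.58 (SE 0.16, adjusted p = 0.0226). In the reference annotation Mir196a-2 lies between Hoxc10 and Hoxc9 with no other listed gene between them, so all 3 neighbours were lower. Hoxa5 was lower by 0.63 (SE 0.13), Hoxa2 by 0.53 (SE 0.15) and Hoxa6 by 0.47 (SE 0.13). The calls of Hoxc10 and Hoxc9 were lost without array 3 of the fraction (adjusted p = 0.0918 and 0.122) or MMTV-neu array 3 (0.0687 and 0.0921), and that of Hoxc10 also without array 2 of the fraction (0.0904). In the fit of the compared groups alone Hoxc9 (0.0813), Hoxa5 (0.0538), Hoxa2 (0.117) and Hoxa6 (0.111) were not called. Hoxa6 was also lost without array 2 (0.0621) or 3 (0.121) of the fraction or MMTV-neu array 3 (0.0983), and Hoxa2 under 6 of 13 alternatives.

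Among markers of cell types that neither line should hold, no gene was called higher. Calls were 0 higher and 5 lower of 15 endothelial markers, 0 and 6 of 19 macrophage and leukocyte markers, and 0 and 2 of 11 adipocyte markers. As shares, 33.3%, 31.6% and 18.2% were lower, against 14.1% of all genes, and the last is near that background. The lower 2 level bins held 13, 16 and 8 of these markers. In those bins, 1467 of 4984 and 810 of 4985 genes were called lower, so a background matched for level is above 14.1%. The mean levels of these lists were 6.16 to 6.32, 5.67 to 5.87 and 6.19 to 6.41 per array in the fraction. In MMTV-neu they were 6.53 to 6.63, 5.90 to 6.06 and 6.36 to 6.49. After quantile normalization 7, 0 and 0 of these markers were lower and 0 were higher.

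**Figure D5:**
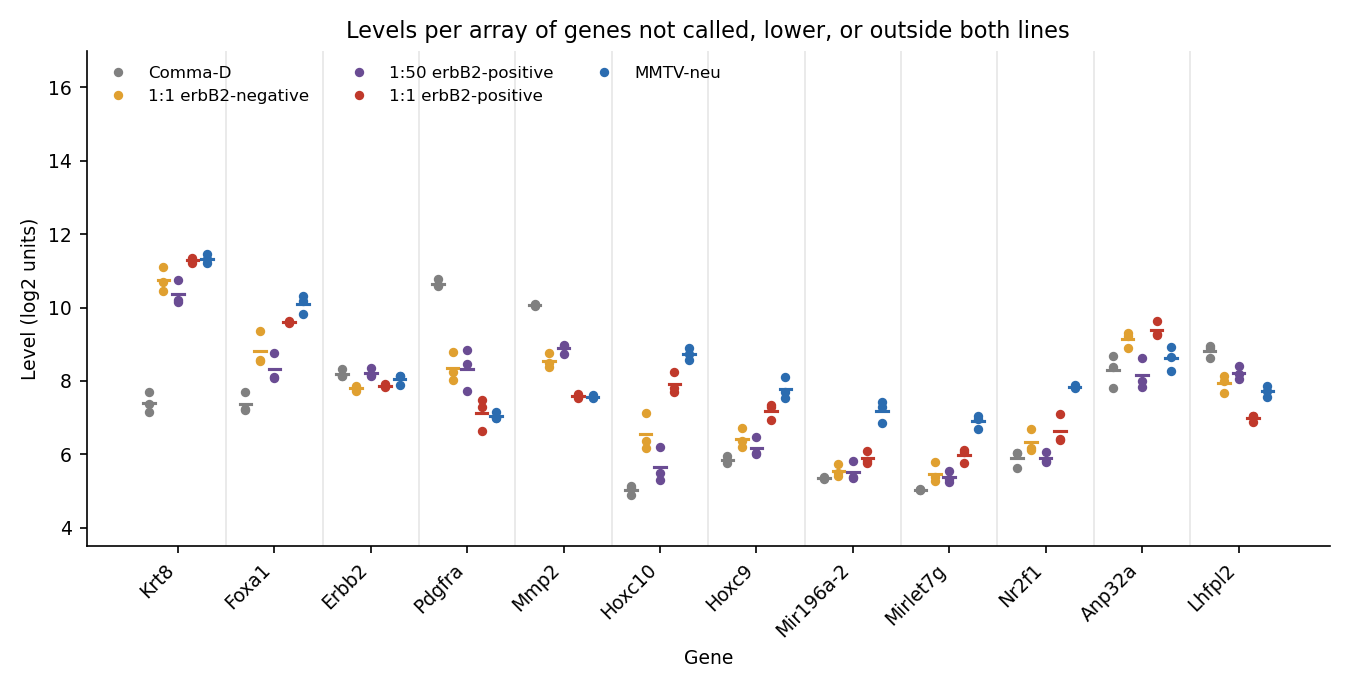
Level per array (log2 units) of 12 genes that were not called, were lower, or lay outside both lines in the 1:1 erbB2-positive fraction, with short bars at the means of 3 arrays. Krt8, Pdgfra and Mmp2 overlap MMTV-neu, Hoxc10, Hoxc9, Mir196a-2, Mirlet7g and Nr2f1 lie between the lines, and the mean of Lhfpl2 lies below every other group.

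Few genes of the fraction lay outside the range of the 2 unmixed lines. Above both lines, with a call against each, were 10 genes (0.0502%), and below both were 164 (0.823%). The first set had 3 to 75 genes under the alternatives and the second 58 to 410. Anp32a, for a histone-binding phosphatase inhibitor, read 9.26, 9.29 and 9.64 in the fraction, 8.93, 8.65 and 8.26 in MMTV-neu and averaged 8.29 in Comma-D. It was 0.78 (SE 0.22, adjusted p = 0.0251) above MMTV-neu and 1.11 above Comma-D (adjusted p = 0.000275). By the smaller of the differences from the 2 lines, the next were Rps3a1, a small-subunit ribosomal protein gene, at 0.90 and 0.68, and Tmed8 at 0.48 and 0.49. For Anp32a, Rps3a1, Tmed8, Rhox9, Ifna2, Ly6g6f, Ebi3 and Olfr1085 the call against MMTV-neu was lost after centring on reference genes, with adjusted p from 0.0962 to 0.894. Below both lines, Gpbp1 was 0.91 below MMTV-neu and 1.19 below Comma-D. Lhfpl2 read 6.89, 7.03 and 7.03 against 7.72, 7.87 and 7.56 in MMTV-neu and a Comma-D mean of 8.83, and kept its call under every alternative run. Rpl12, described above, Ypel3, Hacd4, Mysm1 and Isca1 were also below both, lower than MMTV-neu by 0.62 to 0.72. These last calls were each lost under 1 or more alternatives, Mysm1 only without array 2 of the fraction (adjusted p = 0.0583).

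The fraction was set beside the other sorted fractions to place the comparison, with limma in the same fit. Against Comma-D, 15615 genes (78.3%) were called in the fraction, and against the 1:50 erbB2-positive fraction 14240 (71.4%) were. Against the 1:1 erbB2-negative fraction of the same co-culture ratio 11195 (56.1%) were called, or 6737 without array 3 of the erbB2-negative group. Of the latter, 1617 (8.11%) were lower at least 2-fold in the erbB2-positive fraction and 9 (0.0451%) were higher, Hoxc10 among them at 1.36 (adjusted p = 0.00034). Mir421, at 1.42, had the largest difference of the 9, and against MMTV-neu it was not called at -0.91 (adjusted p = 0.12). Krt8 was higher by 0.53 in the erbB2-positive than in the erbB2-negative fraction (SE 0.19, adjusted p = 0.0273), and Krt14 was lower by 1.29 (adjusted p = 1.86e-05).

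Relative to the 1:50 erbB2-positive fraction, the 8 genes farthest below were Zfp971 (-3.35), the small nucleolar RNA gene Snora20 (-3.12), the desmosomal cadherin gene Dsg3 (-3.03), Serinc5 (-2.96), the cytokine gene Il6 (-2.87), Arhgap42 (-2.82), the lysosomal cystine exporter gene Ctns (-2.81) and Tcim (-2.73). Against MMTV-neu, Il6 (0.07, interval -0.56 to 0.69) and Snora20 (-0.00, interval -0.48 to 0.47) were not called in the 1:1 fraction, whereas Dsg3 (1.52) and Arhgap42 (1.34) were higher. The call of Dsg3 was lost without array 2 (adjusted p = 0.0855) or 3 (0.0812) of the fraction. Farthest above the 1:50 fraction were Hoxc10 (2.26), Ppp2r2c (1.84), H4c3 (1.76), Kcng1 (1.71), Mir421 (1.71), the chromatin remodeller gene Chd7 (1.61), Crabp1 (1.61), which binds retinoic acid, and Zdhhc22 (1.54). Of these 8, Hoxc10 was lower than MMTV-neu, as given above. The other 7 were not called, with differences of -0.91 to -0.11. After centring on reference genes, which lowers all genes alike, H4c3 (adjusted p = 0.0226) and Mir421 (0.0312) were called lower. Mir421 was also called lower with a replicate block (adjusted p = 0.034) and with array weights (0.0174).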

How the data were processed

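Per the submitters' processing notes, the deposited series matrix holds log2 values made with RMA, R 3.1.2 and limma, with summarisation level and filters not given in the sources used here. Of 35556 probe sets, 21789 name 1 gene in the platform annotation. Each of 19938 genes is its single-gene probe set with the highest mean over 18 arrays. No level filter was used.

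Differences were fitted with limma 3.58.1 in R 4.3.3 (lmFit, eBayes), 1 fit of 18 arrays with 12 residual degrees of freedom, two-sided, with calls at an adjusted p below 0.05 (Benjamini-Hochberg, all genes). The fit was tested on simulated data. The comparison and the gene lists were chosen with earlier results of these data known. Named genes are the 15 largest non-overlapping calls each way, the members of lists described, the genes farthest outside both lines or from the 1:50 fraction, and fixed markers. Equal replicate numbers did not pair the fraction with MMTV-neu (r of deviations -0.11 to -0.0002). With the erbB2-negative and 1:50 erbB2-positive fractions every pair exceeded 0.1 (0.22 to 0.63 and 0.15 to 0.52). Unequal numbers gave -0.62 to 0.44 and -0.51 to 0.40, so some exceeded equal pairs and the numbers need not mark pairs. The main fit has no term for pairing. The number of arrays limits the precision.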

Additional observations from a re-analysis of the deposited data

Results flagged for a closer look

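In 23 genes the 1:1 and the 1:50 erbB2-positive fractions were called in opposite directions against MMTV-neu, and the direct comparison of the fractions was called in all 23. Both comparisons use the same MMTV-neu arrays, so the direct difference, 1:1 minus 1:50, is the value given. It was 1.10 for the homeobox gene Rhox9 (limma adjusted p = 1.54e-05), 1.01 for the interferon gene Ifna2, 0.81 for Ly6g6f and 0.67 for the cytokine subunit gene Ebi3, the 4 genes higher in the 1:1 fraction than in MMTV-neu. These 4 lost their call against MMTV-neu after centring on reference genes. They also lost it in the fit of the compared groups alone (limma adjusted p = 0.113, 0.119, 0.121 and 0.148, in the same order). Rhox9, Ifna2 and Ebi3 were among the lowest 40% of genes by level. Of the 19 lower in the 1:1 fraction, the 8 with the largest difference from MMTV-neu were Lhfpl2 (-1.23), Rpl12 (-1.49), the motile sperm domain gene Mospd1 (-0.97), the Golgi syntaxin gene Stx5a (-1.05), the epidermal regulator gene Zfp750 (-1.28), the Mediator kinase gene Cdk19 (-0.90), Msantd4 (-1.09) and Rreb1 (-0.83). Of these 8, Lhfpl2 alone kept its call against MMTV-neu under every alternative run.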

How the results depend on the processing

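Of 104 genes named and called against MMTV-neu, 62 kept their call and direction under all alternatives run (47 of 66 higher, 15 of 38 lower). No change of sign occurred where either value passed the test. Of 26 not called, 11 passed under 1 or more. Against MMTV-neu, calls numbered 1383 higher, 1867 lower, 601 higher at 2-fold and 21 lower at 2-fold with quantile normalization. With reference-gene centring they were 551, 8659, 228 and 119, in total 9210. With the lowest 40% of genes left out, the total was 1127, with 416 lower and 1 lower at 2-fold. Array weights gave 5926 in total, 1403 higher, 4523 lower and 5 lower at 2-fold. Fitting the compared groups only gave 793, of them 230 lower, with fewer residual degrees of freedom and a spread taken from those groups alone. A replicate block gave 4574 and changed no count by over 1.5 times. Leaving out single arrays gave 1362 to 4387 in total, 465 to 1035 higher, 897 to 3352 lower, 288 to 551 higher at 2-fold and 2 to 10 lower at 2-fold. Against Comma-D the count was 9683 without the lowest genes and 14400 to 15398 without single arrays. Against the 1:50 fraction it was 9363 with quantile normalization, 8666 without the lowest genes and 11979 to 14349 without single arrays. Against the erbB2-negative fraction it was 7455, 7167, 6904 (compared groups only), 16899 (array weights) and 6737 to 13221 without single arrays. Genes above both lines numbered 75 (quantile), 6 (centring), 3 (lowest left out), 18 (array weights) and 4 to 14 without single arrays. Genes below both numbered 73 (lowest left out), 410 (array weights) and 58 to 181 without single arrays. The cause was not tested. Array data give no depth, and signals near background limit the small differences.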
